A study of Homo sapiens with 16 samples.

Results

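The 10 receptor genes described here are EGFR, ERBB2, ERBB3, AXL, MET, PDGFRA, PDGFRB, FGFR1, NGFR and KIT, cell surface receptors that have been tied to drug resistance in melanoma. They were taken by symbol from a deposited table of 26475 genes, and all 10 were in it. NGFR is a neurotrophin receptor without a kinase, and the other 9 are receptor tyrosine kinases. For 9 of the 10 enough reads were found for a test, and KIT was listed at or near 0.

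The libraries were made from poly-A RNA of A375 MA2-Luc, an established human melanoma cell line of the BRAF-mutant A375 family. All 4 groups shared the same model: 250000 cells were injected behind the eye of NSG mice, which lack mature T, B and NK cells, and lung metastases were taken. The first group, called ketogenic inhibitor here, had a ketogenic diet and inhibitors of BRAF kinase and MEK 1/2 by gavage 3 times a week for 5 weeks. The second, high fat inhibitor, had a high fat diet and the same inhibitors. The third, ketogenic untreated, had the ketogenic diet and no inhibitors. The fourth, high fat untreated, had the high fat diet and no inhibitors. Each group had 4 libraries. The labels give no single drug, dose, mouse age or vehicle, so gavage and inhibitors cannot be told apart. The series text also speaks of a cultured line, and the labels do not say whether the 4 libraries of a group are 4 mice. The p-values below therefore speak only of the spread among libraries, which may be technical.

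Receptor tyrosine kinases bind growth factors outside the cell, pair up, and phosphorylate each other's tails. Adaptors such as GRB2 dock there and start the RAS, RAF, MEK and ERK chain as well as the PI3K and AKT chain. In BRAF-mutant melanoma the chain runs from the mutant BRAF without a ligand, and BRAF and MEK inhibitors block it there. Receptors above or beside BRAF can restore ERK or AKT signalling under these drugs, which is why high EGFR, ERBB3, AXL, MET, PDGFRB or NGFR is followed as a mark of resistance. Low MITF with high AXL or NGFR is a known melanoma state of low drug sensitivity, and KIT marks the differentiated melanocyte lineage.

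The table holds the authors' RSEM expected counts, which are estimated reads per gene. Levels are given as CPM, the usual per-library scaling of read counts, on TMM-scaled library sizes, and every fold change is a log2 value with its standard error (SE). A gene is called changed where the Benjamini-Hochberg adjusted p of edgeR's quasi-likelihood test over 16012 tested genes was under 0.05. Totals ran from 37.1 to 52.5 M estimated counts in ketogenic inhibitor, 52.0 to 59.2 M in high fat inhibitor, 38.6 to 77.3 M in ketogenic untreated and 56.4 to 64.5 M in high fat untreated libraries. Ribosomal RNA took 4.10% to 8.37%, 15.01% to 20.0%, 15.2% to 33.7% and 21.7% to 50.0% of them in the same order of groups. SOX10, a lineage factor of melanoma, was at group means of 777 to 824 CPM and MITF at 105 to 122 CPM, while the pigment cell antigen MLANA was at 0.0671 to 0.451 CPM.

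The members lie on 7 chromosomes (GENCODE 29 positions, hg38). EGFR (ENSG00000146648.17) spans chromosome 7 from 55019021 to 55211628 and MET (ENSG00000105976.14) the same chromosome from 116672390 to 116798386. ERBB2 (ENSG00000141736.13) spans chromosome 17 from 39687914 to 39730426 and NGFR (ENSG00000064300.8) the same chromosome from 49495293 to 49515017. PDGFRA (ENSG00000134853.11) and KIT (ENSG00000157404.15) are both on chromosome 4, from 54229097 to 54298247 and from 54657918 to 54740715. ERBB3 (ENSG00000065361.15) is on chromosome 12 from 56076799 to 56103505, AXL (ENSG00000167601.11) on chromosome 19 from 41219203 to 41261766, PDGFRB (ENSG00000113721.13) on chromosome 5 from 150113837 to 150155872, and FGFR1 (ENSG00000077782.20) on chromosome 8 from 38400215 to 38468834. PDGFRB and FGFR1 run on the minus strand. EGFR overlaps EGFR-AS1 on the other strand, ERBB2 overlaps PGAP3 and MIEN1, and FGFR1 overlaps LETM2. The strand setting of the counting is not given in the sources used here, so reads of such pairs cannot be told apart.

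High fat untreated replicate 4 stood apart from its group. It had the highest level of its group in 6 of the 9 tested receptors. The cell division genes CDK1, PLK1 and TOP2A were at 15.1, 7.07 and 34.3 CPM in it, against at least 48.7, 57.4 and 261 CPM in the other 3 high fat untreated libraries. Ketogenic inhibitor replicate 4 was lowest of its group in 6 receptors and highest in AXL and NGFR. Receptor calls that were lost or gained without either library are given beside the results.

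**Figure D1:**
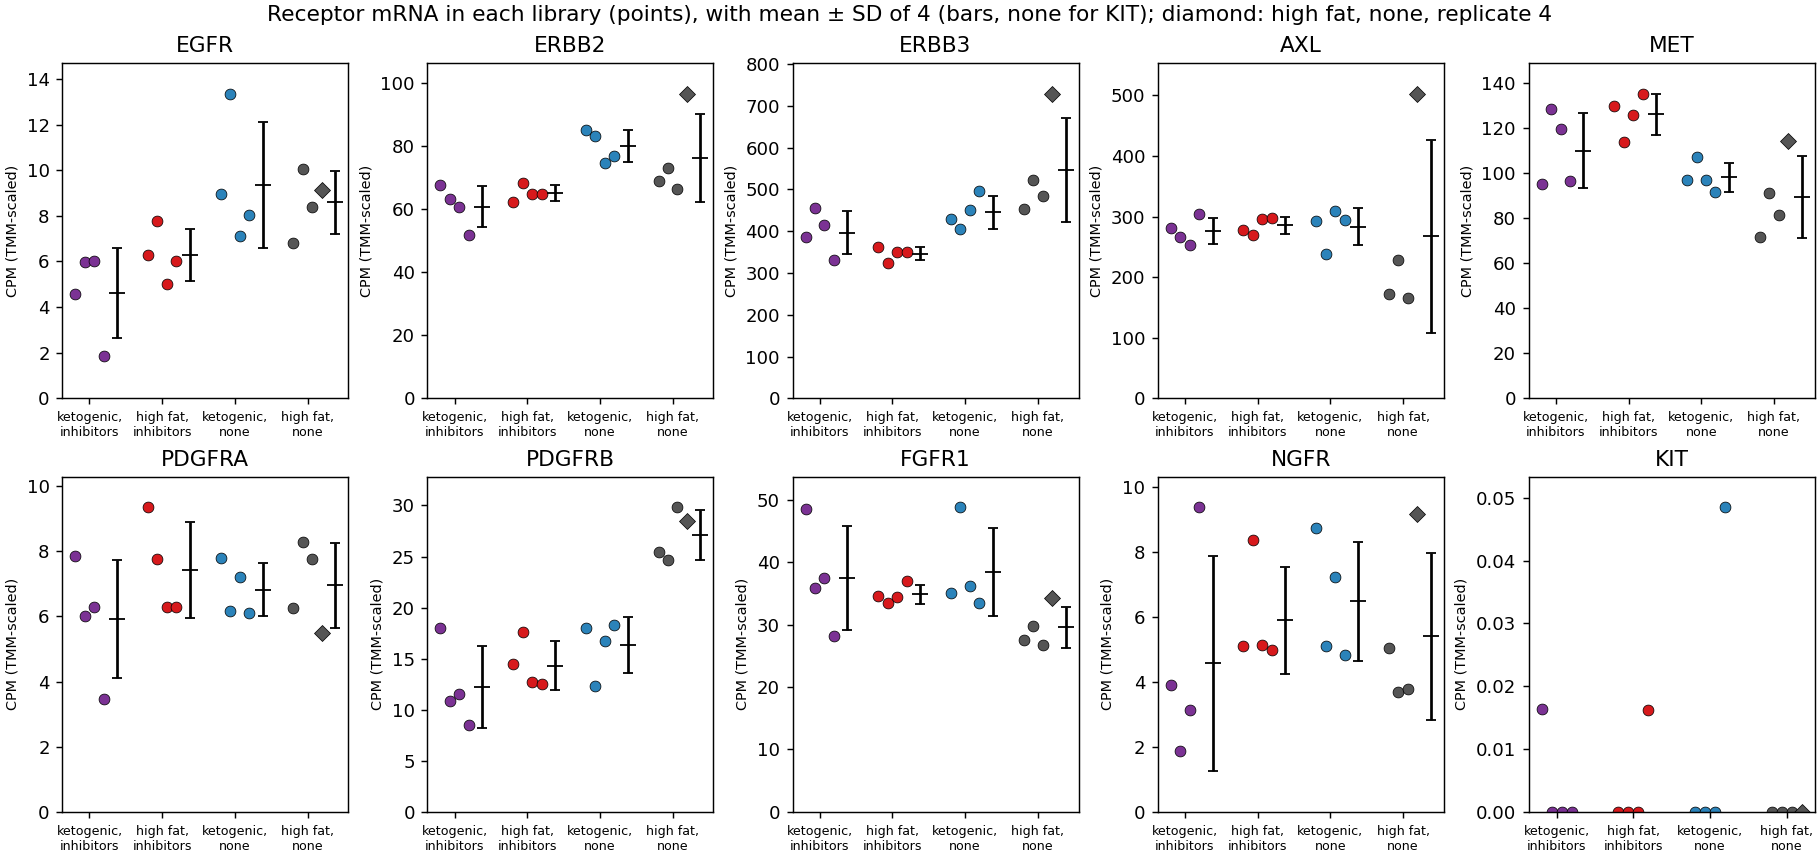
CPM of each of the 10 receptors in all 16 libraries, in groups from left to right: ketogenic inhibitor, high fat inhibitor, ketogenic untreated and high fat untreated. Points are libraries, black bars are mean ± SD of 4, and the diamond is high fat untreated replicate 4; PDGFRB is highest in the 4 high fat untreated libraries (24.6 to 29.8 CPM), and AXL in that replicate (503 CPM) is above the other 15.

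The promoters of 4 members are shown, from 250 bases before to 50 after the start of transcription, because they set a receptor that fell (PDGFRB) and another that rose (MET) beside ERBB2, with the most motif matches, and KIT, with almost no reads. Of the 10 members, 7 matched RefSeq's promoter table (GRCh38.p14), and ERBB3, FGFR1 and NGFR did not. Letters are lower case, 5′ to 3′ on the gene's strand, with motif matches in capitals. The windows are chr5:150155796-150156095 (minus strand) for PDGFRB, chr7:116671946-116672245 for MET, chr17:39687844-39688143 for ERBB2 and chr4:54657707-54658006 for KIT (the last 3 on the plus strand).
PDGFRB: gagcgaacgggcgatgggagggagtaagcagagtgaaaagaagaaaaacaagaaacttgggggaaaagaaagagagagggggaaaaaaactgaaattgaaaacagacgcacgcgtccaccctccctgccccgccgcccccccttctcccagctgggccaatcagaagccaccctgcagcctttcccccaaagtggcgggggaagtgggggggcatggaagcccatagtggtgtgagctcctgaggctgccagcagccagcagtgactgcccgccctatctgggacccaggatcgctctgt
MET: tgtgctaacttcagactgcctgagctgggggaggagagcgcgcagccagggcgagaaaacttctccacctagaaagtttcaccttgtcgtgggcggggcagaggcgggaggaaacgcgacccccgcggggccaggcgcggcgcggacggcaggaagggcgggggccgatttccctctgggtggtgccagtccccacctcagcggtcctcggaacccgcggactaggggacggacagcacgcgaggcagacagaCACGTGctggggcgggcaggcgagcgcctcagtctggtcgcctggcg
ERBB2: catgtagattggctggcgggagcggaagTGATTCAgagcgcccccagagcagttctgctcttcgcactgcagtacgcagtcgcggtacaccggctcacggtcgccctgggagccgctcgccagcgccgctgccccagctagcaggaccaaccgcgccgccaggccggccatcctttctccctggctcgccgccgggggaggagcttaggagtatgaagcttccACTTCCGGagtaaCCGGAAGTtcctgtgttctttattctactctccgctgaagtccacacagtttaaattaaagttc
KIT: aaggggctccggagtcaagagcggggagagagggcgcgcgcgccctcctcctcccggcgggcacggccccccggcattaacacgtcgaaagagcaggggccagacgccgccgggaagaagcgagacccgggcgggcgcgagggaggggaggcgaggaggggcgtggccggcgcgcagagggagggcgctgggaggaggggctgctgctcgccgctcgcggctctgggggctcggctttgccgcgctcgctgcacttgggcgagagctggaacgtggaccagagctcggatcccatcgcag

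Both strands of the 7 promoters were searched for 4 motifs: AP-1 (TGANTCA), ETS (CCGGAAGT), the E-box CACGTG and TEAD (CATTCCA), the sites of factor families downstream of ERK or linked to melanoma states. No match of a motif overlapped a match of another. ERBB2 held an AP-1 match 222 bases before the start and ETS matches 27 and 14 bases before it, which lie on opposite strands. This window is at the outermost start of ERBB2, which overlaps PGAP3 on the other strand. It may not serve ERBB2 alone, and these matches cannot be assigned to 1 of the 2 genes. MET held an E-box 3 bases after the start, and PDGFRA an AP-1 match 32 bases before it. EGFR, AXL, PDGFRB and KIT held none of the 4 in this window. Of 35116 RefSeq promoters of the same 300 bases, 7.71% held the AP-1 letters, 4.14% the ETS letters, 7.26% the E-box and 4.18% the TEAD letters. A match is a description of the letters, not of binding.

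Per length, the receptors differed widely in level. On CPM per kilobase of merged exons, averaged over the groups, ERBB3 and AXL led with 58.4 and 56.8. MET followed with 15.9, ERBB2 with 12.5, FGFR1 with 5.38, PDGFRB with 3.06 and NGFR with 1.52. PDGFRA and EGFR were under 1, at 0.860 and 0.636, and KIT was at 0.000978. ERBB3, whose own kinase is weak and which signals through partners such as ERBB2, thus had the most RNA per length on this average, close to AXL. By group means, ERBB3 led AXL in untreated libraries (73.7 against 54.6 on the high fat and 59.9 against 57.9 on the ketogenic diet). In inhibitor libraries the mean of AXL was above that of ERBB3 (58.3 against 46.6 on the high fat and 56.4 against 53.4 on the ketogenic diet). Whether this order differs between groups was not tested. In ketogenic groups the SD of either receptor was 7.95% to 13.0% of its mean, wider than these gaps. High fat untreated replicate 4 was the highest of its group in both, at 503 CPM for AXL and 729 CPM for ERBB3. The annotation behind the counts is not given, so the lengths used may differ from it. EGFR was among the lowest of the 10.

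On the high fat diet the inhibitor libraries had less PDGFRB and ERBB3 and more MET than the untreated ones, and no other tested receptor passed. The count was 3 of 9, with 1 higher and 2 lower, where 42.3% of all tested genes passed (20.6% higher and 21.7% lower), so the receptors' share was no larger than that of all genes. Their median log2 fold change was 0.10, against -0.03 for all tested genes, and their median size of change was 0.24, against 0.40. In 2 of the 9 the groups did not overlap, against 44.7% of all tested genes. In such bulk samples, fewer cells of a type and less RNA per cell cannot be told apart.

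PDGFRB, a receptor for PDGF-B and PDGF-D usually high in pericytes and fibroblasts, had 14.5, 17.6, 12.7 and 12.5 CPM in high fat inhibitor libraries, against 25.4, 24.6, 29.8 and 28.5 CPM in high fat untreated ones. All 4 inhibitor libraries lay below all 4 untreated ones. The means were 14.3 ± 2.35 and 27.1 ± 2.47 CPM (SD, n = 4 each), a log2 fold change of -0.92 (SE 0.19, edgeR adjusted p = 0.00138). PDGFRB passed in every one of the 27 alternative settings run for this comparison.

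Markers of fibroblasts and pericytes are given beside it, since PDGFRB is one of their receptors. The 16 listed markers summed to 1272 to 2035 CPM in high fat inhibitor libraries and 1469 to 3565 CPM in high fat untreated ones. Most of that was CSPG4 (NG2), a proteoglycan that melanoma cells also make, with 1531 and 2020 CPM on average (edgeR adjusted p = 0.205). Of 11 tested, 3 fell and 1 rose with inhibitors, where 21.7% of all tested genes fell and 20.6% rose. Those that fell were ACTA2 (log2 -1.86), NOTCH3 (-1.20, and -0.66 without high fat untreated replicate 4) and RGS5 (-0.82), and COL3A1 rose (2.08). PDPN, KCNJ8 and ABCC9, the last 2 of them pericyte channel genes, were under 0.1 CPM in all 16 libraries. The injected cells were a human line, so fibroblasts and pericytes of the host lung would be mouse cells. Any removal of mouse reads is not given in the sources used here. The part of such cells in the fall of PDGFRB was not tested.

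ERBB3, which binds neuregulins and activates PI3K through its partners, had 361, 324, 351 and 349 CPM in high fat inhibitor libraries. High fat untreated libraries had 454, 521, 484 and 729 CPM, all above the inhibitor ones. The means were 346 ± 15.7 and 547 ± 124 CPM, a log2 fold change of -0.66 (SE 0.14, edgeR adjusted p = 0.00138). Without high fat untreated replicate 4, the 729 CPM library, the fall was smaller and still passed (log2 -0.49, SE 0.11, edgeR adjusted p = 0.00267). On library size alone, with no TMM factors, it did not pass (log2 -0.40, edgeR adjusted p = 0.121), a scaling that moved the median of all genes up by 0.25.

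MET, the receptor for hepatocyte growth factor, had 130, 114, 126 and 135 CPM in high fat inhibitor libraries, against 71.9, 91.1, 81.3 and 114 CPM in high fat untreated ones. The groups touched at 114 CPM, where the lowest inhibitor library and untreated replicate 4 met. The means were 126 ± 9.14 and 89.7 ± 18.2 CPM, a log2 fold change of 0.49 (SE 0.13, edgeR adjusted p = 0.00671). It did not pass with the share of ribosomal RNA as a covariate (log2 0.44, edgeR adjusted p = 0.0555). Nor did it pass without the 3 libraries over 30% ribosomal RNA (log2 0.42, edgeR adjusted p = 0.0968), 2 of which are high fat untreated.

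AXL, the receptor for GAS6 and the best-known receptor of the drug-tolerant state, turned on 1 library. High fat inhibitor libraries had 278, 270, 297 and 298 CPM, and high fat untreated ones had 172, 229, 165 and 503 CPM. Untreated replicates 1, 2 and 3 lay below all inhibitor libraries and replicate 4 lay far above them. With all libraries the log2 fold change was 0.10 (SE 0.26, edgeR adjusted p = 0.788). Without high fat untreated replicate 4 it was 0.60 (SE 0.12, edgeR adjusted p = 0.00155), in a fit where 41.8% of all tested genes passed. Of the 16 fits without 1 library, AXL passed in this 1 only, the fit that leaves out its highest value. The other 3 high fat untreated libraries averaged 189 ± 35.1 CPM (SD, n = 3), and the 12 libraries of the other groups ran from 238 to 309 CPM, above all 3. AXL also passed in limma voom with quality weights (log2 0.52, SE 0.14, adjusted p = 0.00445), a fit that weights libraries by their spread, in which 62.3% of all tested genes passed.

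**Figure D2:**
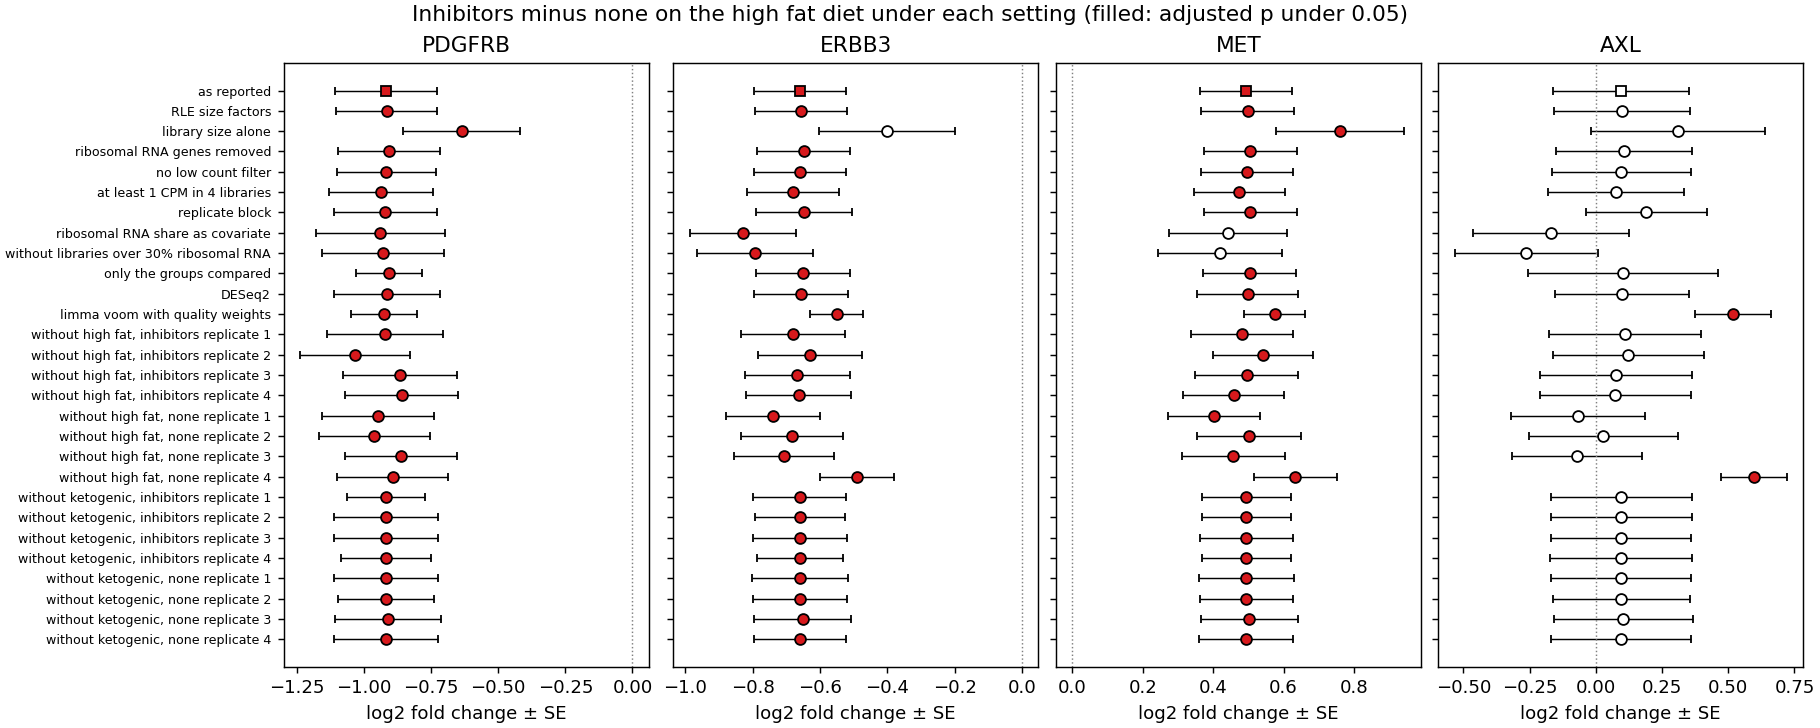
Log2 fold change (± SE) of PDGFRB, ERBB3, MET and AXL, high fat inhibitor minus high fat untreated, in the reported fit (square) and under each alternative (circles), filled where the adjusted p was under 0.05. PDGFRB stays filled throughout, ERBB3 loses its call on library size alone and MET in both settings on ribosomal RNA, and AXL gains one without high fat untreated replicate 4 (log2 0.60) and in limma voom (0.52).

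The other 5 tested receptors did not pass on the high fat diet. EGFR averaged 6.28 ± 1.13 CPM in inhibitor and 8.59 ± 1.37 CPM in untreated libraries (log2 -0.45, edgeR adjusted p = 0.212). ERBB2, the partner receptor of the EGFR family that binds no ligand, averaged 65.1 ± 2.54 and 76.2 ± 13.9 CPM (log2 -0.23, edgeR adjusted p = 0.109). For both, the inhibitor mean was the lower one and the groups overlapped. FGFR1, a receptor for FGF2, averaged 34.8 ± 1.50 and 29.5 ± 3.34 CPM (log2 0.24, edgeR adjusted p = 0.202). PDGFRA, the receptor for PDGF-A, averaged 7.42 ± 1.46 and 6.94 ± 1.30 CPM (log2 0.10, edgeR adjusted p = 0.741). NGFR, a marker of the neural crest-like state, averaged 5.90 ± 1.66 and 5.42 ± 2.58 CPM (log2 0.12, 95% interval -0.74 to 0.98), an interval that leaves room for changes of either sign, and its log2 fold change was 0.50 without high fat untreated replicate 4 (edgeR adjusted p = 0.333).

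On the ketogenic diet no receptor passed between inhibitor and untreated libraries in edgeR, where 1.74% of all tested genes did (0.856% higher and 0.887% lower). Only 3 had an unadjusted p under 0.05, namely EGFR, ERBB2 and PDGFRB, all with the lower mean in inhibitor libraries. DESeq2 called 2 of them, EGFR and ERBB2, where it called 5.50% of all tested genes, and limma voom called 4 receptors, where it called 9.14%. The median log2 fold change of the 9 was -0.21, against 0.01 for all tested genes. In 2 of the 9 the groups did not overlap, against 10.3% of all tested genes.

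EGFR, the receptor for EGF, TGFA and AREG, had 4.58, 5.99, 6.02 and 1.84 CPM in ketogenic inhibitor libraries, against 8.94, 13.4, 7.13 and 8.05 CPM in ketogenic untreated ones. All 4 inhibitor libraries lay below all 4 untreated ones. The means were 4.61 ± 1.96 and 9.37 ± 2.76 CPM, a log2 fold change of -1.03 (SE 0.29, 95% interval -1.64 to -0.42), with an edgeR adjusted p of 0.0799 and a DESeq2 adjusted p of 0.0140. Over the 16 fits that left out 1 library each, it ranged from -1.18 to -0.76 and passed in none. Ribosomal RNA took 4.10% to 8.37% of inhibitor and 15.2% to 33.7% of untreated libraries. With that share as a covariate, EGFR was at -0.80 (SE 0.56, edgeR adjusted p = 0.813), in a fit that called 0% of all tested genes. Without the 3 libraries over 30% it was at -0.81 (edgeR adjusted p = 0.271), where 0.324% passed.

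ERBB2 had 67.5, 63.1, 60.7 and 51.8 CPM in ketogenic inhibitor libraries, against 85.2, 83.2, 74.6 and 76.9 CPM in ketogenic untreated ones. Here too the groups did not overlap. The log2 fold change was -0.40 (SE 0.11), with an edgeR adjusted p of 0.0810 and a DESeq2 adjusted p of 0.0274. It passed in edgeR without high fat untreated replicate 4 (log2 -0.40, SE 0.09, adjusted p = 0.0251), a library that enters this comparison only through the shared estimate of spread.

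PDGFRB had 18.0, 10.9, 11.5 and 8.52 CPM in ketogenic inhibitor libraries, against 18.0, 12.3, 16.7 and 18.3 CPM in ketogenic untreated ones. Inhibitor replicate 1 sat with the untreated libraries and the other 3 lay below them. The log2 fold change was -0.42 (SE 0.19, edgeR adjusted p = 0.254), and without that replicate it was -0.66 (edgeR adjusted p = 0.0417). ERBB3 (log2 -0.17), AXL (-0.04), MET (0.16), PDGFRA (-0.21), FGFR1 (-0.03) and NGFR (-0.50) had edgeR adjusted p values from 0.528 to 0.952. NGFR was at -1.12 without ketogenic inhibitor replicate 4 (edgeR adjusted p = 0.134). MET averaged 110 ± 16.6 CPM in inhibitor and 98.2 ± 6.47 CPM in untreated libraries, and ERBB3 averaged 396 ± 51.6 and 445 ± 38.5 CPM.

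**Figure D3:**
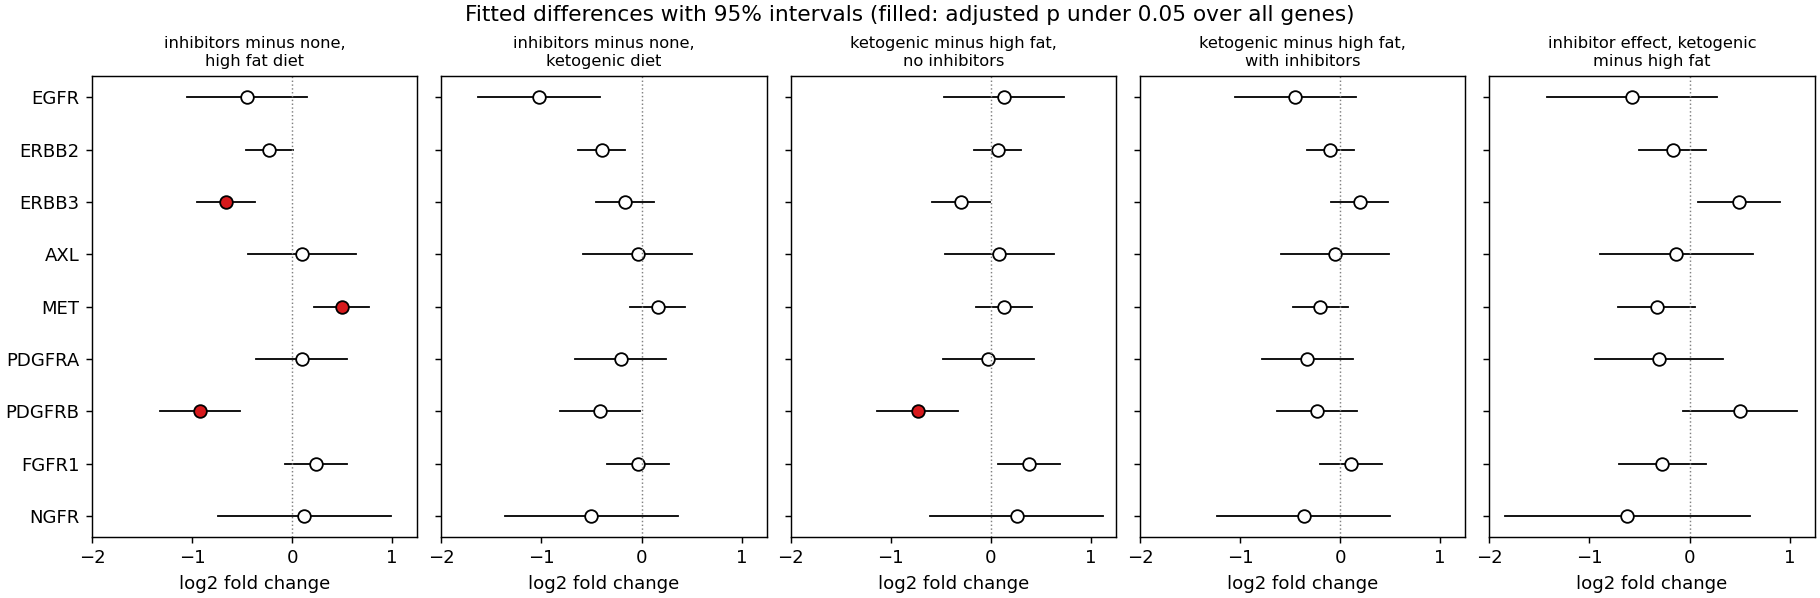
Log2 fold change of the 9 tested receptors (points) with 95% intervals (lines) in 4 comparisons and for the inhibitor effect compared between the diets, filled where the adjusted p was under 0.05. The filled points are ERBB3, MET and PDGFRB for inhibitors on the high fat diet (log2 -0.66, 0.49 and -0.92) and PDGFRB for the diets without inhibitors (-0.73).

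The inhibitor effect itself was compared between the diets, as ketogenic minus high fat. No receptor passed this test in edgeR, where 9.02% of all tested genes did (4.36% higher and 4.66% lower), and 1 had an unadjusted p under 0.05. DESeq2 called 0 of the 9, where it called 15.5% of all tested genes, and limma voom called 3, ERBB3, AXL and NGFR, where it called 32.9%. The receptor with the unadjusted p under 0.05 was ERBB3, with a log2 difference of 0.49 (SE 0.19, 95% interval 0.09 to 0.90, edgeR adjusted p = 0.108): its effect was -0.17 on the ketogenic and -0.66 on the high fat diet. PDGFRB differed by 0.50 (SE 0.27, edgeR adjusted p = 0.229) and MET by -0.33 (SE 0.18, edgeR adjusted p = 0.253). Thus, with all libraries, edgeR did not show the changes of PDGFRB, ERBB3 and MET on the high fat diet to differ from those on the ketogenic diet. Without ketogenic inhibitor replicate 4, ERBB3 passed (log2 0.57, SE 0.19, edgeR adjusted p = 0.0478), in a fit where 16.2% of all tested genes did. Without high fat untreated replicate 4, AXL passed (log2 -0.64, SE 0.17, edgeR adjusted p = 0.0280), where 10.4% did.

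Without inhibitors, 1 receptor differed between the diets. PDGFRB was lower on the ketogenic diet, where 13.5% of all tested genes passed (7.99% higher and 5.51% lower). It had 18.0, 12.3, 16.7 and 18.3 CPM in ketogenic untreated libraries, all below the 24.6 to 29.8 CPM of the high fat untreated ones, and 25.5% of all tested genes had groups that did not overlap. The means were 16.3 ± 2.75 and 27.1 ± 2.47 CPM, a log2 fold change of -0.73 (SE 0.19, edgeR adjusted p = 0.0193). The call was lost without high fat untreated replicate 3 (log2 -0.68, edgeR adjusted p = 0.0617) and without ketogenic untreated replicate 2 (-0.62, 0.0779). It was also lost without the 3 libraries over 30% ribosomal RNA, both of those among them (-0.62, 0.224), and on library size alone (-0.54, 0.115), where the median of all genes moved up by 0.15.

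Of the other receptors, 2 had an unadjusted p under 0.05 between the untreated diets. FGFR1 averaged 38.4 ± 7.04 CPM in ketogenic untreated and 29.5 ± 3.34 CPM in high fat untreated libraries (log2 0.38, SE 0.15, edgeR adjusted p = 0.0929). FGFR1 passed without ketogenic inhibitor replicate 4 or replicate 1 (edgeR adjusted p = 0.0448 and 0.0485), libraries that enter here only through the shared estimate of spread. ERBB3 averaged 445 ± 38.5 and 547 ± 124 CPM (log2 -0.30, SE 0.14, edgeR adjusted p = 0.148). AXL was at a log2 fold change of 0.08 (SE 0.26), and at 0.59 (SE 0.12, edgeR adjusted p = 0.00959) without high fat untreated replicate 4. EGFR, ERBB2, MET, PDGFRA and NGFR had log2 fold changes from -0.02 to 0.26, with edgeR adjusted p values from 0.521 to 0.950.

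With inhibitors, ketogenic and high fat libraries differed in no receptor, where 0.169% of all tested genes passed in edgeR. None of the 9 had an unadjusted p under 0.05, DESeq2 called 0 and limma voom 2, ERBB3 and NGFR, where these tools called 2.15% and 6.57% of all tested genes. Every receptor's groups overlapped, whereas 7.14% of all tested genes had groups that did not. The log2 fold changes farthest from 0 were those of EGFR, with 4.61 ± 1.96 CPM in ketogenic inhibitor and 6.28 ± 1.13 CPM in high fat inhibitor libraries (log2 -0.45, 95% interval -1.05 to 0.16), and of NGFR (log2 -0.36, 95% interval -1.23 to 0.50). Without ketogenic inhibitor replicate 4, NGFR was at -0.98 (edgeR adjusted p = 0.198) and EGFR at -0.18 (edgeR adjusted p = 0.737). AXL, at 276 ± 21.9 and 286 ± 14.1 CPM, had an interval of -0.59 to 0.49.

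Comparing groups that differ in both diet and inhibitors gives the order of the levels. Ketogenic inhibitor libraries were lower than high fat untreated ones in 4 of 9 receptors, EGFR, ERBB2, ERBB3 and PDGFRB, where 30.5% of all tested genes passed and 13.8% were lower. PDGFRB was at 12.2 ± 4.04 and 27.1 ± 2.47 CPM (log2 -1.15, SE 0.19, edgeR adjusted p = 0.000716), the lowest and the highest of its 4 group means. EGFR had a log2 fold change of -0.90 (edgeR adjusted p = 0.0269), ERBB3 of -0.46 (0.0179) and ERBB2 of -0.33 (0.0359). Those of ERBB2 and ERBB3 did not pass without high fat untreated replicate 4 (log2 -0.19 and -0.29, edgeR adjusted p = 0.123 and 0.0538), while AXL (log2 0.55, edgeR adjusted p = 0.00464) and MET (log2 0.44, edgeR adjusted p = 0.0122) passed as higher in that fit, where 30.1% of all tested genes did. Without ketogenic inhibitor replicate 4, ERBB2 and ERBB3 were lost too (log2 -0.26 and -0.39, edgeR adjusted p = 0.0969 and 0.0525) and FGFR1 passed as higher (log2 0.46, edgeR adjusted p = 0.0224), where 23.7% of all tested genes passed. Over the 16 fits without 1 library, EGFR passed in 14, ERBB2 in 10, ERBB3 in 14 and PDGFRB in 16. MET also passed without ketogenic inhibitor replicate 1 (log2 0.36, edgeR adjusted p = 0.0489), where 36.2% of all tested genes did. This comparison shares its libraries with those above. High fat inhibitor and ketogenic untreated libraries differed in none of the 9 in edgeR, where 13.4% of all tested genes passed (6.45% higher and 6.91% lower), and 3 had an unadjusted p under 0.05. DESeq2 called 0, where it called 18.0% of all tested genes, and limma voom 4, where it called 34.7%. Without high fat untreated replicate 4, which is in neither group, ERBB2 (log2 -0.30, edgeR adjusted p = 0.0282), ERBB3 (-0.36, 0.0269) and MET (0.36, 0.0330) passed, where 15.3% of all tested genes did. EGFR passed without ketogenic inhibitor replicate 4 (-0.58, 0.0491), where 18.6% did.

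The order of group means differed from receptor to receptor. PDGFRB ran from high fat untreated down to ketogenic untreated, high fat inhibitor and ketogenic inhibitor, and ERBB3 from high fat untreated to ketogenic untreated, ketogenic inhibitor and high fat inhibitor. MET ran the other way, with high fat inhibitor on top and high fat untreated last. EGFR and ERBB2 shared 1 order, from ketogenic untreated through high fat untreated and high fat inhibitor to ketogenic inhibitor. Of all neighbours in these orders, only PDGFRB's high fat untreated and ketogenic untreated means passed the test. The ratio of the highest to the lowest group mean was 2.22 for PDGFRB and 2.03 for EGFR. It was 1.07 for AXL, although its libraries spanned a ratio of 3.05. For a ranking among genes, a small constant was first added to every group mean, which shrinks the ratios of low genes. On that scale PDGFRB and EGFR had wider ratios than 92.3% and 88.1% of tested genes.

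**Figure D4:**
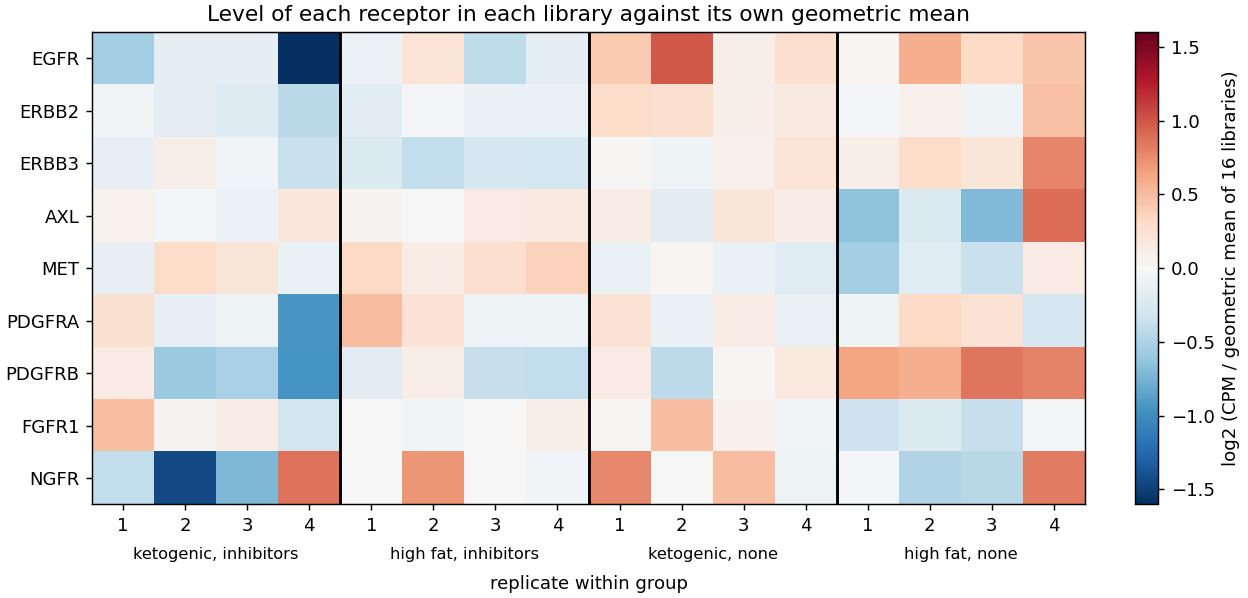
Level of each of the 9 tested receptors (rows) in each of the 16 libraries (columns, by group), as log2 of CPM over the receptor's geometric mean. High fat untreated libraries are red for PDGFRB and blue for AXL and MET, except replicate 4, which is red for 7 receptors, AXL (503 CPM) among them, and ketogenic inhibitor replicate 4 is blue for EGFR (1.84 CPM), PDGFRA (3.47 CPM) and PDGFRB (8.52 CPM).

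The members differed in how far replicates spread. NGFR ranged from 1.89 to 9.39 CPM within ketogenic inhibitor libraries, where replicate 4 was the highest, and from 3.68 to 9.17 CPM within high fat untreated ones, where replicate 4 was again the highest. PDGFRA stayed between 3.47 and 9.35 CPM in all 16 libraries, with its lowest value in ketogenic inhibitor replicate 4. FGFR1 ran from 26.8 to 48.8 CPM. Thus, for the low receptors NGFR and PDGFRA the spread within a group was as wide as any gap between group means.

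KIT, the receptor for stem cell factor and a marker of melanocytes and mast cells, was all but absent. Its reads numbered 1 over the ketogenic inhibitor libraries, 1 over the high fat inhibitor ones, 2 over the ketogenic untreated ones and 0 over the high fat untreated ones. A count of 0 over that group allows up to 0.0144 CPM (3 counts over the group), which covers counting error only. Of 8 mast cell markers, FCER1A and CMA1 were at 0 in all 16 libraries and CPA3 was under 0.1 CPM. GATA2, the highest of the 8, averaged 21.3 CPM, and the 8 summed to 13.8 to 33.0 CPM per library. KITLG, which encodes the KIT ligand, did not pass on either diet.

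The patterns most like each receptor's were sought by Pearson's r of log2 CPM over the 16 libraries, among 10958 genes of at least 5 CPM. These r values share libraries, depth and ribosomal share, and are given as a description. PDGFRB was most like DNAH1 (r = 0.96), EGFR like ATP11A (0.96), ERBB3 like HLCS (0.95), MET like SAMD9 (0.95) and ERBB2 like GFPT2 (0.93). AXL was most like MCL1 (0.89), PDGFRA like LMO7 (0.87), NGFR like PLAUR (0.84) and FGFR1 like GNE (0.79). The lowest of these r values belonged to FGFR1. By ranks (Spearman's rho) the same pairs were at 0.59 for PDGFRA, 0.62 for FGFR1, 0.74 for AXL and 0.86 for NGFR. The pairs of the remaining receptors were at 0.87 to 0.94.

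Of 28 listed ligands of the receptors, 21 could be tested. On the high fat diet 4 rose and 6 fell with inhibitors, where 20.6% of all tested genes rose and 21.7% fell. On the ketogenic diet none passed, where 1.74% of all tested genes did. Their median log2 fold change on the high fat diet was 0.17, against -0.03 for all tested genes. AREG, a ligand of EGFR, had 25.2, 29.7, 57.9 and 64.5 CPM in high fat inhibitor libraries, against 2.15, 3.98, 1.29 and 10.3 CPM in high fat untreated ones (log2 3.31, SE 0.80, edgeR adjusted p = 0.00533). No inhibitor library overlapped the untreated ones. In ketogenic libraries AREG was at 13.0 to 48.6 CPM without inhibitors and at 17.9, 16.9, 17.1 and 106 CPM with them.

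NRG1, the neuregulin that binds ERBB3, had 32, 33, 21 and 36 reads in high fat inhibitor libraries, against 0, 4, 0 and 1 in high fat untreated ones. The means were 0.515 and 0.0260 CPM (edgeR adjusted p = 0.000757), and at counts near 0 the fitted fold is coarse. Ketogenic inhibitor libraries had 4 to 10 reads and ketogenic untreated ones 0 to 6. The rise of NRG1 thus went with a fall of its receptor ERBB3 on the high fat diet.

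HGF, the ligand of MET, moved opposite to its receptor. It had 4.20, 3.94, 3.73 and 4.43 CPM in high fat inhibitor libraries, against 7.61 to 12.8 CPM in high fat untreated ones (log2 -1.37, SE 0.20, edgeR adjusted p = 0.0001). All inhibitor libraries lay below all untreated ones. FGF2, a ligand of FGFR1, fell with inhibitors on the high fat diet (log2 -0.35, edgeR adjusted p = 0.0110) and was lower on the ketogenic diet without inhibitors (log2 -0.35, edgeR adjusted p = 0.0321, past the test in 11 of 16 fits without 1 library). EGF was also lower on the ketogenic diet without inhibitors (log2 -1.22, edgeR adjusted p = 0.0405), and of 16 fits without 1 library it passed in 7.

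The other 6 ligands past the test on the high fat diet are named after their values were seen. TGFA, a ligand of EGFR, had 200 to 231 CPM in inhibitor and 277 to 550 CPM in untreated libraries (log2 -0.78, SE 0.20, edgeR adjusted p = 0.00554), and -0.51 without high fat untreated replicate 4. GAS6, the AXL ligand, fell (log2 -0.62, edgeR adjusted p = 0.0237), and did not pass without high fat untreated replicate 4 (log2 -0.33, edgeR adjusted p = 0.113). PDGFA fell (log2 -0.72, edgeR adjusted p = 0.0473), and likewise did not pass without that library (log2 -0.27, edgeR adjusted p = 0.311). NRG2 fell (log2 -0.53), while FGF7 (1.69) and the NGFR ligand BDNF (0.69) rose. Over 16 fits without 1 library NRG2 passed in 10, BDNF in 11 and PDGFA in 6.

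**Figure D5:**
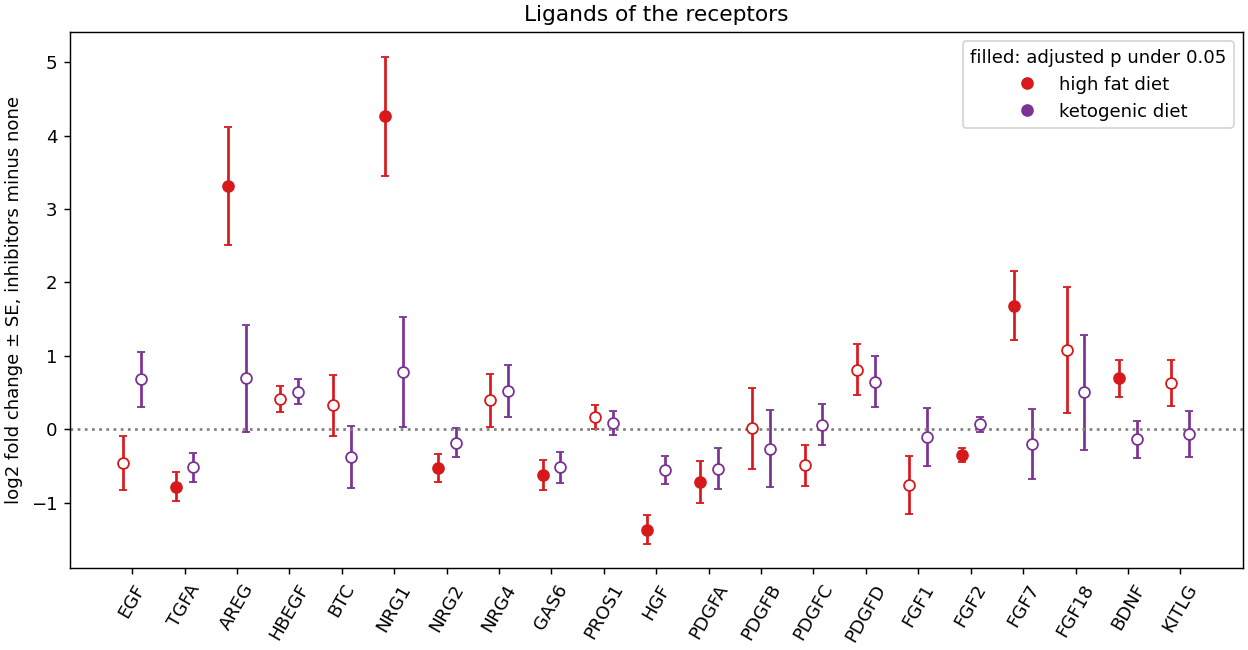
Log2 fold change ± SE of the 21 tested ligands, inhibitor minus untreated libraries, on the high fat (left point of each pair) and ketogenic diet (right point), filled where the adjusted p was under 0.05. On the high fat diet AREG (3.31), NRG1 (4.27), FGF7 (1.69) and BDNF (0.69) are filled above 0 and HGF (-1.37) lies lowest, and no ketogenic point is filled.

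Of 20 tested related receptors, 4 rose and 6 fell with inhibitors on the high fat diet, where 20.6% of all tested genes rose and 21.7% fell. Without the 3 libraries over 30% ribosomal RNA, 3 rose and 2 fell, in a fit where 23.6% of all tested genes passed. The collagen receptor DDR1 rose to 98.2 CPM in inhibitor libraries, against 58.6 CPM in untreated ones (log2 0.75, edgeR adjusted p = 0.000463). SORT1, the co-receptor of NGFR for proneurotrophins, rose (log2 0.79), and FGFR4 fell (log2 -0.66). TYRO3, a receptor of the AXL family, fell to 49.4 CPM, against 82.6 CPM in untreated libraries (log2 -0.74, edgeR adjusted p = 0.00698), and is named after its values were seen. On the ketogenic diet ROR2, a WNT5A receptor, rose to 4.72 CPM in inhibitor libraries, against 1.70 CPM (log2 1.48, SE 0.34, edgeR adjusted p = 0.0351), and passed in 11 of 16 fits without 1 library. FGFRL1 was higher in ketogenic untreated than in high fat untreated libraries (log2 0.76, edgeR adjusted p = 0.0388), and passed in 9 of 16 such fits.

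Behind the receptors, 3 of 20 adaptors and effectors rose and 2 fell with inhibitors on the high fat diet, where 42.3% of all tested genes passed. GRB2, the adaptor that links receptors to RAS, rose (log2 0.55, edgeR adjusted p = 0.000228), as did the PI3K subunit PIK3R2 (log2 0.32). The adaptor SHC2 fell to 2.65 CPM in inhibitor libraries, against 15.04 CPM in untreated ones (log2 -2.50). No adaptor passed for inhibitors on the ketogenic diet. Without inhibitors, GAB2, a docking protein for PI3K, was lower on the ketogenic diet (log2 -0.90, edgeR adjusted p = 0.0100), while GRB2 and PIK3R2 were higher (log2 0.33 and 0.34) and passed in 11 of 16 fits without 1 library each. Without the 3 libraries over 30% ribosomal RNA no adaptor passed between the untreated diets, in a fit that called 0 of all genes.

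Of 21 tested genes that restrain receptors, 6 rose with inhibitors on the high fat diet, 0 fell and 15 did not pass, where 20.6% of all tested genes rose and 21.7% fell. The median log2 fold change of the 21 was 0.03, against -0.03 for all tested genes. PTPN1, a phosphatase of receptor tails, rose (log2 0.44, edgeR adjusted p = 0.00141), as did SPRED1, an inhibitor of RAS signalling (log2 0.41), and SH2B3, an inhibitory adaptor (log2 0.44). ERRFI1, an inhibitor of EGFR kinase, rose (log2 0.61, edgeR adjusted p = 0.0300) and passed in 11 of 16 fits without 1 library. The rises numbered 4 to 7 over those fits and the falls 0 to 2, and 2 rose and 0 fell without the 3 libraries over 30% ribosomal RNA. On the ketogenic diet none passed.

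As a check of the inhibited pathway, 4 of 20 ERK output genes rose and 5 fell on the high fat diet, a share near the 42.3% of all tested genes that passed. EPHA2 (log2 -1.09), SPRY1 (-1.07), SPRY4 (-0.63), PHLDA1 (-0.56) and ETV4 (-0.41) fell. IER3 (0.95), EPHA4 (0.93), the ERK phosphatase DUSP6 (0.68) and SPRED1 (0.41) rose. DUSP6, a gene known to fall when MEK is blocked, was at 466 CPM in inhibitor and 291 CPM in untreated libraries (edgeR adjusted p = 0.0196). It passed in 13 of 16 fits without 1 library, and its log2 fold change was 1.05 without high fat untreated replicate 4 and 0.39 without the 3 libraries over 30% ribosomal RNA (edgeR adjusted p = 0.287). ETV4 was at -0.27 without high fat untreated replicate 4, and SPRY1 passed in 12 of the 16 fits. On the ketogenic diet no ERK output gene passed with inhibitors.

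Of 21 tested genes of melanoma states, 4 rose and 4 fell on the high fat diet, where 20.6% of all tested genes rose and 21.7% fell. Among them were JUN, an AP-1 subunit tied to tolerance (log2 2.43, edgeR adjusted p = 9.39e-05), the YAP target CTGF (1.41) and ZEB1, a repressor of epithelial genes (-1.16, edgeR adjusted p = 5.65e-05). Without inhibitors 4 were higher and 1 lower on the ketogenic diet, where 7.99% of all tested genes were higher and 5.51% lower, with CTGF (log2 1.61), NES (0.79) and CYR61 (0.88) on the higher side. The counts grew to 6 rises and 5 falls on the high fat diet, and to 7 and 1 between the untreated diets, without high fat untreated replicate 4. Without the 3 libraries over 30% ribosomal RNA they were 4 and 3 on the high fat diet and 0 and 0 between the untreated diets.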

How the data were processed

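The deposited table holds RSEM expected counts (estimated counts) that the authors made, unscaled, for 26475 genes in 16 libraries. Bowtie2 2.1.0, RSEM 1.2.15 and hg38 appear in the submitters' processing notes. The sources used here do not give the annotation, the strand setting or any removal of mouse reads. Values that were not whole (13.0%) were rounded. Genes were filtered with filterByExpr, and TMM factors and a robust quasi-likelihood fit of 4 group means came from edgeR 4.0.16 under R 4.3.3, with a common biological coefficient of variation of 0.228. Tests were two-sided and adjusted by Benjamini-Hochberg over 16012 genes, threshold 0.05. The procedure was also run on simulated counts. These held no deviant library and no group difference in ribosomal RNA share, so that run cannot speak to either. No 2 libraries of the same group agreed within counting noise, and pairs across groups were not compared. The members, gene lists and tests were chosen with earlier results of these data known. All 10 members are named, as are the 3 genes with the smallest p per list and comparison among those past the test, all ERK output genes past it, and the most similar gene per member. The table lists CCN1 and CCN2 as CYR61 and CTGF. Alternatives were DESeq2 1.42.0, limma 3.58.1 voom with quality weights, other scalings and filters, a replicate block, the share of ribosomal RNA and leaving out libraries. Intervals are at the 95% level. With 4 libraries per group and 12 residual degrees of freedom, the intervals of the low receptors are wide.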

Additional observations from a re-analysis of the deposited data

Results flagged for a closer look

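In high fat inhibitor libraries, NGFR replicate 2 was at 8.39 CPM, against 4.98 to 5.14 CPM in the other 3, a gap of 0.953 of the group's whole range. It was the only flag in 36 groups of 4 libraries tested, and chance flags about 1 in 20 groups.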

How the results depend on the processing

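Of 1692 receptor values under alternatives, 1612 kept their side of the threshold, 30 lost it, 49 gained it (23 of them in limma voom with quality weights) and 1 changed sign with a call. That one was ERBB2, ketogenic inhibitor against high fat untreated, at log2 0.10 on library size alone, a scaling that moved the median of all genes up by 0.43 there; DUSP4 (0.42), ETV5 (0.39) and FGF2 (0.16) changed sign likewise. Counts of called receptors follow, each with the share of all genes called in the same fit. For inhibitors on the high fat diet (3, 42.3%) it was 5 with only the groups compared (48.7%) and 6 in limma voom (62.3%). On the ketogenic diet (0, 1.74%) it was 2 in DESeq2 (5.50%) and 4 in limma voom (9.14%). Between the untreated diets (1, 13.5%) it was 0 on library size alone (10.3%), 0 without the libraries over 30% ribosomal RNA (0%) and 5 in limma voom (40.3%). Between the diets with inhibitors (0, 0.169%) and for the difference of effects (0, 9.02%) limma voom gave 2 (6.57%) and 3 (32.9%). For ketogenic inhibitor against high fat untreated (4, 30.5%) it was 0 with the ribosomal RNA share as covariate (0.0562%), 2 without the libraries over 30% (10.5%), 1 with only the groups compared (17.6%) and 7 in limma voom (50.9%). For high fat inhibitor against ketogenic untreated (0, 13.4%) it was 3 with only the groups compared (25.0%) and 4 in limma voom (34.7%). The cause was not tested.

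Leaving out 1 library at a time, the counts ran from 3 to 4 and from 0 to 1 for inhibitors on the high fat and the ketogenic diet, from 0 to 2 between the untreated diets, 0 throughout between the diets with inhibitors, and 0 to 1 for the difference of effects. They ran from 2 to 5 for ketogenic inhibitor against high fat untreated and from 0 to 3 for high fat inhibitor against ketogenic untreated. Over the same fits the share of all genes called ran, in that order, from 33.5% to 46.9%, 0.542% to 2.75%, 4.79% to 19.7% and 0.0185% to 0.395%. For the last 3 comparisons it ran from 2.51% to 16.2%, 20.9% to 36.2% and 5.97% to 18.6%. Libraries of the same replicate number deviated together with a median r of 0.0175 over 24 pairs (-0.153 to 0.207), and 3 of 16 libraries were most like their own number, so the numbers were not taken to pair samples. With a replicate block the counts were 3, 0, 1, 0, 0, 3 and 0 in the order of comparisons above, the change being ERBB2 between ketogenic inhibitor and high fat untreated (log2 -0.32, adjusted p = 0.0530).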
